A study of Gallus gallus with 2 samples.

Results

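Glycolysis converts glucose to pyruvate in the cytosol, and lactate dehydrogenase interconverts pyruvate and lactate. Hexokinase and phosphofructokinase spend ATP early in the pathway, aldolase splits the sugar into trioses, and phosphoglycerate kinase and pyruvate kinase return ATP later on. Several steps have isozymes encoded by separate genes, and a tissue's set of isozymes differs with its cell types; growing embryonic tissue such as the chick tail bud is known for high glycolysis in the presence of oxygen. Described here are 10 genes of this pathway, chosen by symbol: HK1, PFKP, ALDOC, TPI1, GAPDH, PGK1, ENO1, ENO2, LDHA and LDHB. The 10 were present, with 1 annotated locus each, among 16736 genes left after loci of the same symbol were summed. Earlier results of these libraries, the high ratio of ENO2 and the low ratio of GAPDH among them, were known when they were chosen, so their ratios are a description and were not tested.

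The RNA came from limb buds of chick embryos at Hamburger-Hamilton stage 22 (day 4), which were cut up and divided into a group with vehicle (5% DMSO) and a group with thalidomide at 40 µg/ml, each held at 37 °C for 4 h. The labels give no strain, sex, number of embryos or limb type, and do not say whether the thalidomide group also received DMSO. There was 1 library per treatment, so there are no replicates and no difference below has a replicate check; every value compares these libraries and not the treatments. The comparison asks which transcripts differ in limb bud tissue held with thalidomide.

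Values are FPKM, fragments per kilobase of transcript scaled to depth, with the authors' lower and upper confidence limits. Read as counting error, the limits imply 23361629 fragments for vehicle and 23280002 for thalidomide, numbers that are too low where assignment was uncertain. The FPKM sum over all genes was 426632 with vehicle and 384280 with thalidomide. Of the 11 limb mesenchyme markers, 10 reached 1 FPKM in a library, with PRRX1 at 217 and 185 FPKM, while HOXA13 is listed at 0 in both libraries. The tissue also held other cells: the 8 limb ectoderm markers summed to 52.8 FPKM with vehicle and 45.6 with thalidomide, the 6 endothelial markers to 34.9 and 29.2, and the 8 muscle markers that matched to 93.5 and 77.3. These sums, like the FPKM sum over all genes, were lower with thalidomide. In such bulk tissue, fewer cells of a type, less RNA per cell and the scaling of the libraries cannot be told apart.

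In these libraries ENO2 and PFKP were higher with thalidomide, GAPDH was lower, and the other 7 enzymes were neither 25% higher nor 20% lower. Ratios are log2 of (thalidomide FPKM + 1) over (vehicle FPKM + 1), and a ± after a ratio is 1 SE from the deposited limits, which covers counting and assignment error within a library only. ENO2 was 2.43-fold higher and PFKP 1.35-fold higher on this scale, and GAPDH was 1.36-fold lower. That made 2 of 10 members at least 25% higher, against 6.14% of the 10905 genes with at least 1 FPKM in a library, and 1 of 10 at least 20% lower, against 8.71%. Ratios were above 0 for 4 members and below 0 for 6, against 41.0% and 59.0% of all genes kept. These shares of members follow from the choice of genes and support nothing by themselves. The members' median log2 ratio was −0.05, as was that of all genes kept.

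**Figure D1:**
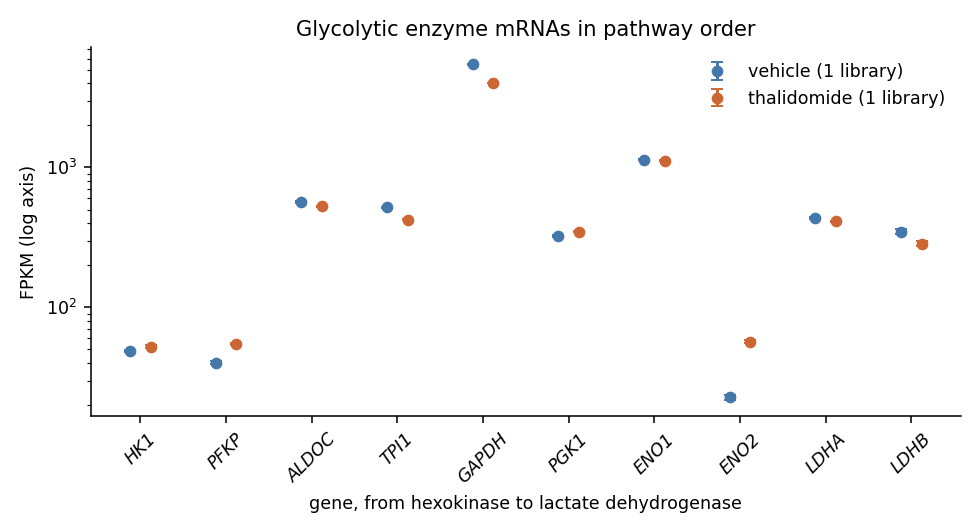
FPKM of the 10 enzymes (y axis, log scale) in pathway order (x axis), with vehicle in blue and thalidomide in orange; each point is 1 library and bars are the authors' confidence limits, mostly smaller than the points. ENO2 moves from 22.8 to 56.9 FPKM and reaches the level of PFKP and HK1, while GAPDH stands above every other enzyme in both libraries.

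Because every member was abundant, with a mean of at least 39.9 FPKM, the background was also taken over the 2967 genes with a mean FPKM of at least 20, a limit chosen after the values were seen. In that range the table as deposited leaned downwards, with a median log2 ratio of −0.15. Of these genes 2.26% were at least 25% higher and 14.2% at least 20% lower. The FPKM sum over all genes was also lower with thalidomide (384280, against 426632 with vehicle), so this lean depends on the library scaling. For each of the 10 members the vehicle and thalidomide intervals were apart, as for 66.3% of genes of this abundance and 42.4% of all genes kept. Intervals apart therefore say little about an abundant gene.

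Hexokinase traps glucose in the cell by phosphorylating it. HK1, its widely expressed form, had 49.0 FPKM with vehicle (interval 48.0 to 50.0) and 52.5 with thalidomide (51.5 to 53.5), a log2 ratio of 0.10 ± 0.02. HK2, the hypoxia- and insulin-responsive form in mammals, had 44.7 and 54.2 FPKM (0.27 ± 0.05). HK1 was 1.10 ± 0.03 times HK2 with vehicle and 0.97 ± 0.03 times with thalidomide. HK1 was thus slightly above HK2 with vehicle, while the order of these forms with thalidomide is not settled. HK2 lies on an unplaced scaffold, and its inferred fragments (1608 and 1711) differed less than its FPKM. The fragments of HK1 (9273 and 10681) differed more in proportion than those of HK2. The move of the HK1 to HK2 ratio towards HK2 was thus seen in FPKM and not in fragments. Fragments are not scaled to transcript length, so they cannot rank these forms. HKDC1, a further hexokinase domain gene, stayed under 0.1 FPKM.

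Phosphofructokinase commits the sugar to glycolysis. PFKP, the form first described in platelets, had 40.3 FPKM with vehicle (39.2 to 41.3) and 54.8 with thalidomide (53.6 to 56.0), a log2 ratio of 0.44 ± 0.02. Its ratio lay at percentile 97.3 of all genes kept. PFKL, the liver form, went the other way, with 18.7 and 15.6 FPKM (−0.25 ± 0.05). PFKM, the muscle form, had 1.16 and 1.02 FPKM with overlapping intervals. PFKP therefore made up 67.0% of phosphofructokinase FPKM with vehicle and 76.7% with thalidomide. The ratio of PFKP to PFKL, which no scaling between libraries can change, was 2.15 ± 0.06 with vehicle and 3.52 ± 0.10 with thalidomide.

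Aldolase and triose-phosphate isomerase supply glyceraldehyde 3-phosphate. ALDOC, the aldolase typical of brain in mammals, had 568 FPKM with vehicle (561 to 575) and 527 with thalidomide (521 to 534), a log2 ratio of −0.11 ± 0.01. ALDOA, the widely expressed form in mammals, was not matched by symbol and is not analysed here, so no share of ALDOC in the step is given. TPI1, the only triose-phosphate isomerase, had 519 FPKM with vehicle (513 to 526) and 423 with thalidomide (418 to 429). Its log2 ratio was −0.29 ± 0.01, lower than in ALDOC and just short of a 20% drop.

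GAPDH, which oxidises the triose and passes electrons to NAD, dominated the group. It had 5448 FPKM with vehicle (5427 to 5469) and 4001 with thalidomide (3983 to 4018), a log2 ratio of −0.45 ± 0.004. It ranked at position 3 of all genes by FPKM with vehicle and at position 7 with thalidomide. GAPDH was 61.3% of the members' summed FPKM with vehicle and 55.0% with thalidomide, and accounted for most of the difference between the sums, 8890 and 7277 FPKM. Without GAPDH the other 9 summed to 3443 and 3276 FPKM. GAPDH differed more than TPI1, so that GAPDH was 10.5 ± 0.07 times TPI1 with vehicle and 9.45 ± 0.07 times with thalidomide. With both libraries scaled to the same FPKM total, the GAPDH log2 ratio was −0.29 a drop of under 20%.

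PGK1, the first ATP-producing step, did not follow GAPDH. It had 324 FPKM with vehicle (320 to 328) and 347 with thalidomide (343 to 351), a log2 ratio of 0.10 ± 0.01. GAPDH, which acts just before it, was 16.8 ± 0.11 times PGK1 with vehicle and 11.5 ± 0.07 times with thalidomide. The next enzyme, PGAM1 (phosphoglycerate mutase, outside the 10), had 574 and 480 FPKM (−0.26 ± 0.02). Neighbouring steps of the lower pathway thus differed in sign between these libraries as deposited.

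Enolase removes water from 2-phosphoglycerate, and the form ENO1 is the general one while ENO2 is best known from neurons and neuroendocrine cells. ENO2 had 22.8 FPKM with vehicle (21.9 to 23.8) and 56.9 with thalidomide (55.4 to 58.3), a difference of 34.0 FPKM and a log2 ratio of 1.28 ± 0.03. ENO1 had 1136 FPKM with vehicle (1129 to 1144) and 1118 with thalidomide (1111 to 1125), a log2 ratio of −0.02 ± 0.01. The difference thus lay in the minor enolase: ENO2 was 1.97% of enolase FPKM with vehicle and 4.84% with thalidomide, and ENO1 was 49.7 ± 1.05 times ENO2 with vehicle and 19.7 ± 0.26 times with thalidomide. Summed over ENO1, ENO2 and ENO4, enolase had 1160 and 1175 FPKM, a log2 ratio of 0.02 ± 0.01 for the step. ENO4, an enolase-like gene, stayed under 1 FPKM, and ENO3, the muscle form, was not matched by symbol and is not analysed here.

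The ENO2 ratio was at position 17 from the top among the 10905 genes kept, and at position 2 among the 10786 of them at loci of 300 bases or more. The inferred fragments of ENO2 numbered 2316 with vehicle and 6013 with thalidomide. One fragment of ENO2 was worth 0.959 times as much FPKM with thalidomide as with vehicle, which lies within the middle 95% of 10230 genes with at least 100 fragments (0.880 to 1.01). Counted in inferred fragments, a comparison added after the values were seen, ENO2 was 2.56% of enolase with vehicle and 6.04% with thalidomide. Because fragments are not scaled to transcript length, this is not a second estimate of the part of ENO2 in enolase mRNA. By the distance of log2(FPKM + 1) over both libraries, the genes most like ENO2 were ATP6V0E1, a subunit of the vacuolar proton pump (25.5 and 41.1 FPKM, distance 0.48), PNISR, a nuclear serine- and arginine-rich protein (34.2 and 53.8 FPKM, distance 0.57), and IST1, an endosomal sorting factor (35.1 and 54.1 FPKM, distance 0.60). With 2 points per gene this likeness says only that their levels were near, and the interval of ATP6V0E1 was wide (log2 ratio 0.67 ± 0.42).

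**Figure D2:**
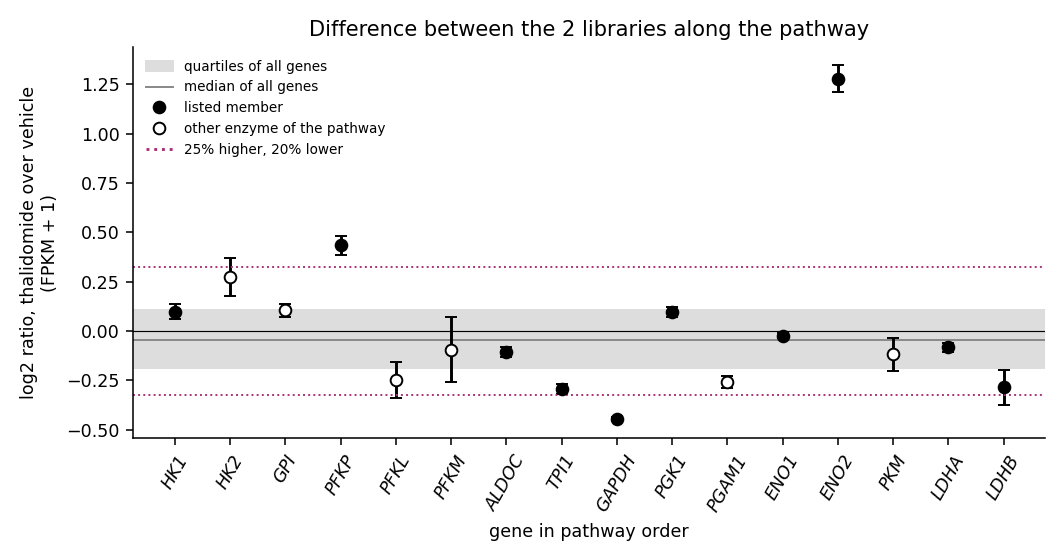
Log2 ratio of thalidomide over vehicle on the FPKM + 1 scale (y axis) for the 10 members (filled) and other measured enzymes of the pathway (open) in pathway order (x axis), 1 library per treatment; bars are 2 SE from the deposited limits, the grey band runs between the quartiles of all genes kept (−0.19 to 0.11) and dotted lines mark 25% higher and 20% lower. ENO2 stands at 1.28, PFKP at 0.44 and GAPDH at −0.45, and most other enzymes lie within the band or near it.

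Markers of neurons were set beside ENO2, since that gene is typical of them. Of 16 markers 13 matched and 11 reached 1 FPKM. Of these 11, 4 had a log2 ratio above 0 and 7 below, beside 41.0% and 59.0% of all genes kept. The 13 summed to 123 FPKM with vehicle and 109 with thalidomide, and none of the 13 was listed at 0. The FPKM sum over all genes was also lower with thalidomide. TUBB3, a neuronal tubulin, had 71.5 and 58.6 FPKM (−0.28 ± 0.04), and ELAVL4, a neuronal RNA-binding protein, had 8.20 and 6.37 FPKM (−0.32 ± 0.08). Higher were NEFL, the light neurofilament, with 4.87 and 6.17 FPKM (0.29 ± 0.08) and STMN2, a growth cone protein, with 1.90 and 3.03 FPKM and overlapping intervals (0.47 ± 0.18). No matched neuronal marker reached the ratio of ENO2, but ENO2 was chosen with its high ratio known, so this follows from the choice. The part of neurons in the level of ENO2 was not tested.

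Red blood cells, which live on glycolysis in mammals but keep a nucleus and mitochondria in birds, were also checked. Of 14 markers 8 matched and 7 reached 1 FPKM. These 7 had ratios above 0, beside 41.0% of all genes kept, with a sum of 487 FPKM with vehicle and 640 with thalidomide. Intervals overlapped for HBG2 (0.06 ± 0.06), HBE1 (0.34 ± 0.14) and SLC4A1 (0.09 ± 0.13). SLC4A1 was the only marker of the 7 that is not a globin. HBZ is listed at 0 in both libraries. The highest was HBAD, an alpha-type globin, with 39.1 and 58.5 FPKM (0.57 ± 0.05). The part of red blood cells in the levels of the glycolytic enzymes was not tested.

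Lactate dehydrogenase regenerates NAD by reducing pyruvate, with the A form prevailing in muscle and the B form in heart. LDHA had 436 FPKM with vehicle (431 to 440) and 411 with thalidomide (406 to 416), a log2 ratio of −0.08 ± 0.01. LDHB had 348 FPKM with vehicle (333 to 363) and 285 with thalidomide (273 to 298), a log2 ratio of −0.29 ± 0.04. LDHA was therefore 55.6% of lactate dehydrogenase FPKM with vehicle and 59.0% with thalidomide. This rests on an uncertain LDHB value. Its limits lay 4.36% and 4.39% from the value, against 1.13% and 1.12% for the similarly abundant LDHA, and its inferred fragments, 2106 and 2076, gave a log2 ratio of only −0.02.

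**Figure D3:**
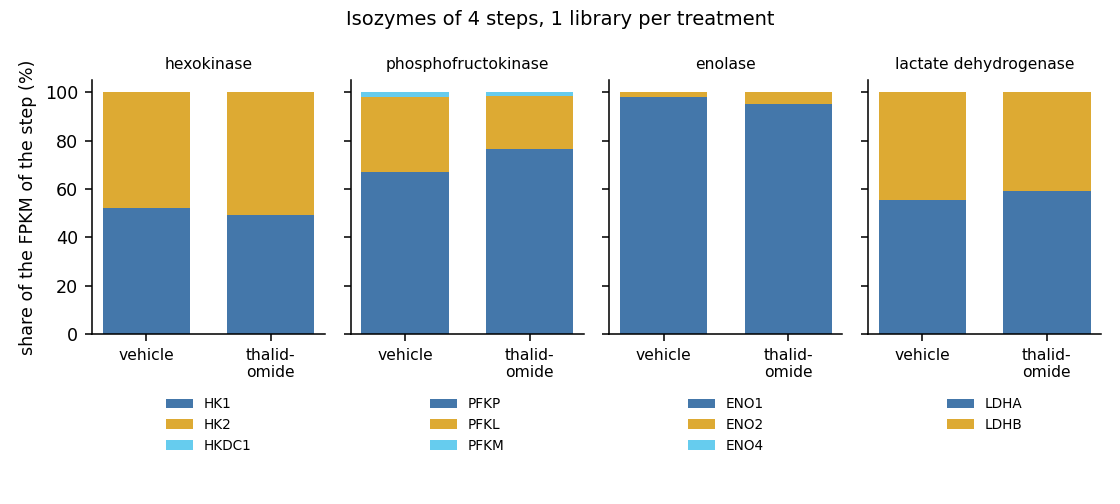
Share of each isozyme in the summed FPKM of its step (y axis, percent) for 4 steps with more than 1 form described here, vehicle and thalidomide side by side, 1 library each. PFKP moves from 67.0% to 76.7% and ENO2 from 1.97% to 4.84%, while HK1 and HK2 stay near equal shares.

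Summed by step over the forms described here, 5 of 11 steps had a log2 ratio above 0 and 6 below, and 7 and 4 when both libraries were scaled to the same FPKM total. Phosphofructokinase had the highest ratio as a step (60.1 and 71.4 FPKM, 0.24 ± 0.02), followed by hexokinase (93.7 and 107 FPKM, 0.19 ± 0.03) and GPI, the isomerase between them (155 and 166 FPKM, 0.10 ± 0.02). These are the first 3 steps, and their levels were the lowest of the 11. PGK1, a later step, had 0.10 ± 0.01 and could not be told apart from GPI. The hexokinase ratio includes HK2, whose inferred fragments (1608 and 1711) differed less than its FPKM. The rank of hexokinase is thus uncertain. PKM, the pyruvate kinase gene, had 587 and 541 FPKM with overlapping intervals (−0.12 ± 0.04). Its inferred fragments were few for this level, 2278 and 2308, against 26283 and 24540 for the similarly abundant ALDOC. They were not lower with thalidomide, so the sign of this step is uncertain. Pathway order was not tested.

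Among the wider set of 8 lists on glucose metabolism, 59 of 75 entries matched and 51 reached 1 FPKM. As deposited, 18 of the 51 had a ratio above 0 and 33 below, beside 41.0% and 59.0% of all genes kept. Of these 51, 1 was at least 25% higher (PSPH) and 4 at least 20% lower (PDK1, PDHB, TKT and GBE1). Those shares, 1.96% and 7.84%, stood beside a background of 6.14% and 8.71% of all genes, and the median log2 ratio of the 51 was −0.04. None of the 51 was 1.5-fold higher or lower, against 0.954% and 0.972% of all genes kept, and of the 10 members ENO2 alone was. At shares this small a list of 51 genes may well hold none, and ENO2 was chosen with its high ratio known. The contrast thus supports nothing by itself.

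The main glucose and lactate transporters had ratios close to 0: the glucose transporter SLC2A1 had 155 and 153 FPKM, and the lactate transporters SLC16A1 and SLC16A3 had log2 ratios of 0.09 and 0.10. The highest of this list was SLC2A3, a high-affinity glucose transporter, with 32.4 and 39.5 FPKM (0.28 ± 0.04), and the lowest was SLC2A8 (−0.18 ± 0.07). Among regulators, PFKFB3, which makes the activator fructose 2,6-bisphosphate for phosphofructokinase, was highest with 37.8 and 45.5 FPKM (0.26 ± 0.02), and its relative PFKFB4 had 0.25 ± 0.07. The relatives PFKFB1 (1.17 and 1.01 FPKM, −0.11 ± 0.27) and PFKFB2 (1.39 and 1.14 FPKM, −0.16 ± 0.12) were low and had overlapping intervals. Lowest in the list of regulators and pyruvate entry was PDHB, a subunit of pyruvate dehydrogenase, with 54.7 and 42.9 FPKM (−0.34 ± 0.03). PDK1, a kinase that inhibits this complex, had 15.6 and 12.1 FPKM (−0.34 ± 0.07). Of the 17 measured genes of this list, 13 had ratios below 0 and 4 above as deposited, beside 59.0% and 41.0% of all genes kept. Several of the 13 lay close to 0, such as PDHA1 (−0.03 ± 0.04) and DLAT (−0.02 ± 0.05), so the count depends on the library scaling. The median log2 ratio of the 17 was −0.11 as deposited.

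In the pentose phosphate branch 4 of 7 genes matched. All 4 had ratios below 0 as deposited, beside 59.0% of all genes kept. They ran from TALDO1 (−0.01 ± 0.03) to TKT, the transketolase, with 144 and 114 FPKM (−0.33 ± 0.02). In the side branches the extremes were PSPH, the last enzyme of serine synthesis, with 10.4 and 14.8 FPKM (0.47 ± 0.10), and GPD1L (−0.23 ± 0.03). Among glycogen genes they were PGM2, a phosphopentomutase and phosphoglucomutase (0.26 ± 0.06), and the branching enzyme GBE1 with 9.14 and 6.35 FPKM (−0.46 ± 0.05). Of the 7 gluconeogenesis genes 3 matched, while PCK1, PCK2, PC and G6PC were not matched by symbol and are not analysed here. Of the matched genes FBP1 (0.04 ± 0.08) and G6PC3 (−0.16 ± 0.08) reached 1 FPKM, both with overlapping intervals.

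Of the 10 members, 4 lie on chromosome 1 of galGal4, the assembly named in the submitters' processing notes. ENO2 (ENSGALG00000014528) spans 76766963 to 76776197, and TPI1 spans 76754054 to 76757054, so that the loci are next to each other with 9908 bases between them. GAPDH spans 76434647 to 76437498, and 329464 bases separate its end from the start of ENO2; LDHB spans 67177978 to 67190068. These adjacent genes, TPI1 and ENO2, had log2 ratios of −0.29 and 1.28. The 3 loci on each side of ENO2 ran from −0.40 at C12ORF57 to 0.16 at PTPN6, a gene under 1 FPKM, and no locus shown beside ENO2 overlapped it. Beside GAPDH, IFFO1 had 0.22, NOP2 0.06 and CHD4 0.05 on one side, and NCAPD2 had −0.17 and snoU85, a small RNA with 0.779 and 0.501 FPKM, −0.25 on the other. None of the 6 loci around ENO2 had a ratio as high as ENO2. None of those around GAPDH had one as low as GAPDH on the FPKM + 1 scale. For snoU85, under 1 FPKM, this rests on the added 1: without it the drop of snoU85 was the larger in proportion. ENO2 and GAPDH were chosen with their ratios known, so less extreme neighbours follow from that choice. Whether these regions differed as a whole was not tested.

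**Figure D4:**
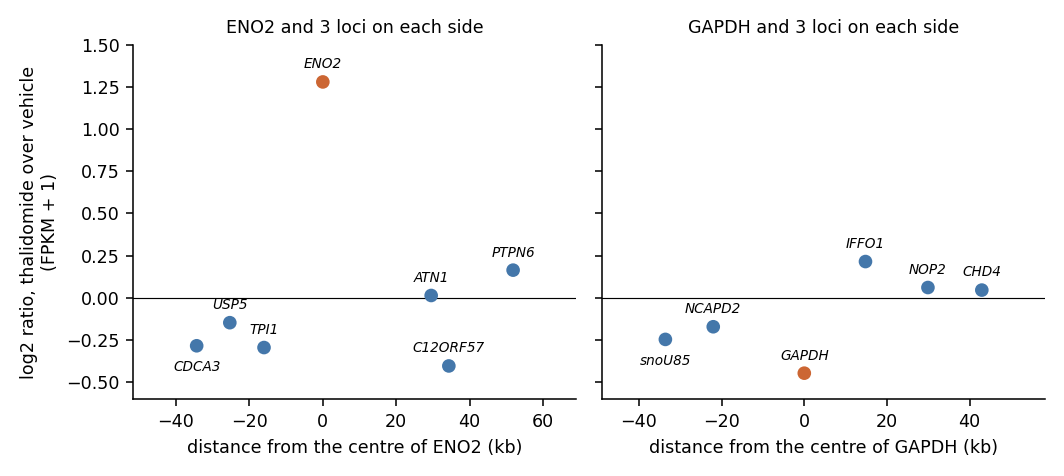
Log2 ratio of thalidomide over vehicle on the FPKM + 1 scale (y axis) against distance in kb from the centre of ENO2 (left) or GAPDH (right) for the 3 annotated loci on each side (blue) and the gene itself (orange), 1 library per treatment; CNP1 beside GAPDH, listed at 0 in both libraries, is left out. ENO2, chosen with its high ratio known, lies at 1.28 and its neighbours lie between −0.40 and 0.16.

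The other members lie apart: ENO1 on chromosome 21 (3215099 to 3227491), PGK1 on chromosome 4 (12898194 to 12909392), LDHA on chromosome 5 (11936824 to 11942582), PFKP on chromosome 2 (11354185 to 11395733), ALDOC on chromosome 19 (5734740 to 5737598) and HK1 on chromosome 6 (10469531 to 10496298). Exon structure was not examined.

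The signs of 7 members were the same under each scaling, and those of 3 were not. ENO2, PFKP, PGK1 and HK1 were above 0, and GAPDH, TPI1 and LDHB below 0, as deposited and in each of the 9 alternatives. Of these, other filters, unsummed rows and leaving out short loci could not change a member's ratio. No alternative lowered the ratio of ENO2, PFKP, PGK1 or HK1, so their signs above 0 were not put to a check. ENO1 ran from −0.02 to 0.17, LDHA from −0.08 to 0.11 and ALDOC from −0.11 to 0.08. ENO2 ran from 1.28 to 1.46 and PFKP from 0.44 to 0.62. LDHB ran from −0.29 to −0.02, the latter from inferred fragments and smaller than its SE of 0.04, so its direction is not settled. Scaling to the same FPKM total moved the median of all genes from −0.05 to 0.08, and the ratios of ENO1, LDHA and ALDOC were then 0.13, 0.07 and 0.04.

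**Figure D5:**
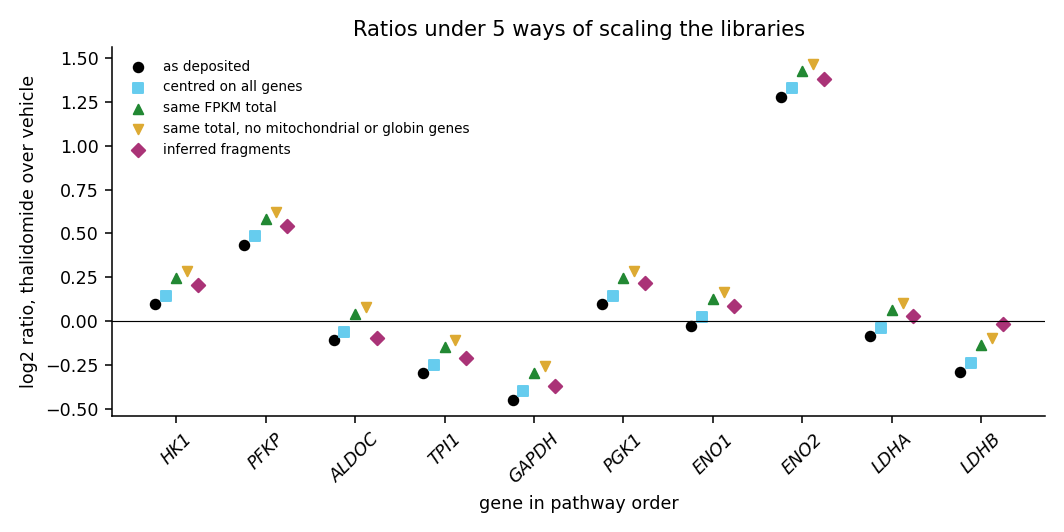
Log2 ratio of thalidomide over vehicle (y axis) for the 10 members in pathway order (x axis) as deposited and under 4 other ways of scaling, 1 library per treatment; inferred fragments were compared without an added 1. ENO2 and PFKP stay above 0 and GAPDH below 0 throughout, while ENO1, LDHA and ALDOC cross 0. None of these scalings lowers ENO2 or PFKP, so their signs could not change.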

How the data were processed

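The deposited files are gene tables of FPKM with confidence limits, made by the authors, per the file headers; the assembly galGal4 and the tools Cufflinks 2.2.1, Cuffdiff, STAR 2.4.2a and bcl2fastq are listed in the submitters' processing notes with no roles. Annotation release, strandedness and treatment of multiply mapped reads are not stated there or in the labels. Annotated rows (17108 per file) were matched by ID and summed by symbol, ignoring case, to 16736 genes, and the 10905 with at least 1 FPKM in a library were kept. With FPKM in place of counts and 1 library per treatment, no test was possible. Errors came from the upper limit, taken as 2 SD; an inferred fragment number is the square of FPKM over that SD and is too low where assignment is uncertain. A change was counted at a ratio of at least 25% higher or 20% lower on the FPKM + 1 scale. Starts in the files count from 0 (in 6 of 6 receptor loci under 1500 bases the end minus the start is a multiple of 3), so 1 was added. The members and lists were chosen with earlier results of these data known. Some isozymes that the naming rule picked are not reported here and were left out of the pathway lists and step sums. Named were the members, isozymes of their steps, the extreme ratio at each end of each pathway list (not of the cell type lists), the 3 loci on each side of ENO2, GAPDH and TPI1, and the 3 genes nearest to ENO2; others, such as PFKFB4, PDK1 and the transporters and markers given as examples, were named after their values were seen. The ratio and its error were tested on simulated libraries with known changes. Alternatives were other pseudocounts, filters, scalings, unsummed rows, inferred fragments and no loci under 300 bases. Computation used Python 3.11.15, numpy 2.4.6 and pandas 2.3.3.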

Additional observations from a re-analysis of the deposited data

How the results depend on the processing

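No paired analysis was possible because each treatment had 1 library, and no library could be left out for the same reason. The count of members at least 25% higher was 2 in each of the 9 alternatives. The share of all genes that far up was 6.14% as deposited. It was 14.8% with the same FPKM total, 18.2% with that total taken without mitochondrial and haemoglobin genes, and 15.5% from inferred fragments. Beside such shares the unchanged count says little. The count at least 20% lower was 1 as deposited, beside 8.71% of all genes. It was 0 with both libraries scaled to the same FPKM total, with or without mitochondrial and haemoglobin genes, since GAPDH then no longer passed. The share of all genes was then 2.58% with those genes and 2.03% without them. The members' median log2 ratio was −0.05 as deposited. It was −0.0055 after centring on the median of all genes. It turned positive at 0.10 with the same FPKM total, at 0.14 with that total taken without mitochondrial and haemoglobin genes, and at 0.059 from inferred fragments. The first 2 of these also moved the median of all genes, to 0.08 and 0.12, and fragments moved it to 0.04. A pseudocount of 0.1 changed neither count nor the sign of the median. Unsummed rows, no filter, a minimum of 5 FPKM and leaving out loci under 300 bases could not change a member's value. Each member has 1 row, more than 5 FPKM in both libraries and a locus longer than 300 bases, so these settings bear only on the background. The spread between tissue samples is unknown, since the deposited limits cover counting and assignment error only.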
